A study of Rattus norvegicus with 9 samples.

Results

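The 7 genes described here store, carry, make, break down or sense retinoids, the family of vitamin A and its products: Lrat, Rbp4, Aldh1a1, Aldh1a2, Aldh1a3, Cyp26a1 and Rarb. They were chosen by symbol for their roles, with earlier results of these data known, and they are 7 of the 17156 genes named in the count tables. RNA was sequenced from 9 liver samples of male Sprague Dawley rats, 3 in each of the normal control, model and TA groups, which are called rats 1 to 3 below although the labels do not state that each is a separate animal. Normal rats received saline. Model and TA rats received carbon tetrachloride (CCl4), a hepatotoxin that scars the liver, at 2 ml/kg of a 50% solution in oil, 2 times a week for 9 weeks. TA rats then received tormentic acid, a plant triterpenoid, at 3.0 mg/kg for 6 weeks, the dose that the series' design text gives for the TA group sampled. The labels of the TA libraries carry no dose, the sources used here do not say what the model rats were given in those 6 weeks, and the labels call the livers of both CCl4 groups hepatitis stage.

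In the liver, most vitamin A is held as retinyl ester in the lipid droplets of hepatic stellate cells, where the enzyme Lrat makes the ester, and hepatocytes send retinol into the blood bound to Rbp4. Retinol is oxidised to retinaldehyde and then, by the Aldh1a enzymes, to retinoic acid, which binds nuclear receptors such as Rarb and is broken down by Cyp26 enzymes. Stellate cells are known to lose their retinoid droplets when they turn into the matrix-making myofibroblasts of a fibrotic liver.

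Retinoic acid receptors bind a repeated pair of short sites, most often 5 bases apart (DR5) or 2 bases apart (DR2), and both elements were searched on both strands of the RefSeq promoter windows (rat assembly GRCr8, 250 bases before to 50 after each gene's start). A window was listed for each of the 7 genes. A DR5 element lay in the windows of Cyp26a1 and Rarb, and in 128 of 33469 windows (0.382%) overall. No DR2 element lay in the windows of the 7 genes, against 57 windows (0.17%) overall. The sites of both genes are shown, with 6 bases on each side, because Cyp26a1 and Rarb are textbook targets of retinoic acid and the only ones of the 7 with such an element. They read from 5′ to 3′ on the gene's strand, with the element in capitals:
Cyp26a1, chr1:244883724-244883752, plus strand: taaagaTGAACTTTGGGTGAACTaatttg
Rarb, chr15:11336410-11336438, plus strand: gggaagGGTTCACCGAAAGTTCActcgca
The Cyp26a1 element spans bases -92 to -76 from the start and is read on the other strand. The Rarb element spans bases 25 to 41 and is read on the gene's strand. A match is a description of the letters and not a site shown to be bound.

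Between 13156735 and 18090405 reads were counted per liver, and counts are given below as CPM, the reads of a gene relative to the library total after TMM scaling. Model rat 1 stood apart: its 50 most abundant genes held 27.9% of its reads, against 40.4% to 45.7% in the other 8 livers, and its scaling factor was 1.70 against 1.16 and 1.05 in the other model rats. Scaling by library totals alone moved the median log2 fold change over every gene tested from 0.02 to 0.65 (Model VS Normal) and from 0.00 to -0.48 (TA VS Model), and the share of calls that were higher from 74.95% to 94.42% and from 17.19% to 3.637%. Marker lists of the labelled tissue were present throughout, with the 10 hepatocyte genes summing to 109200-138600 CPM in normal, 26570-96300 CPM in model and 92290-152600 CPM in TA livers. The 8 myofibroblast genes summed to 205-355, 1148-12300 and 589-1078 CPM, the 8 cholangiocyte genes to 40.7-53.1, 147-286 and 66.2-83.0 CPM, and the 7 mesothelial genes to 0.839-12.6, 35.5-99.3 and 13.8-23.5 CPM. The 11 stellate lineage genes summed to 384-501, 247-570 and 332-422 CPM, and 3 pancreatic genes to at most 3.07 CPM in any liver. The stellate sum does not show how its genes moved. Its largest part in normal livers, Ecm1, had 248-303 CPM there and 42.7-112 CPM in model livers. Des had 2.06-4.15 and 11.1-91.6 CPM, and Pdgfrb 15.2-27.95 and 85.7-269 CPM, in the same order. In bulk liver RNA, fewer cells of a type and less RNA per cell cannot be told apart.

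In these livers the synthesis enzymes Aldh1a2 and Aldh1a3 had higher levels in model than in normal livers, with fitted fold changes of 9.51 and 5.95 in edgeR, while for Lrat and Rarb no comparison passed the edgeR test and the groups overlapped. Aldh1a3 was also higher in TA than in normal livers, with a fitted fold change of 4.73. Cyp26a1, the retinoic acid hydroxylase, had higher mean CPM in both CCl4 groups, without an adjusted p under 0.05, and the Aldh1a2 values of TA and normal livers overlapped. Rbp4, the carrier of retinol, had its lowest values in model livers.

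**Figure D1:**
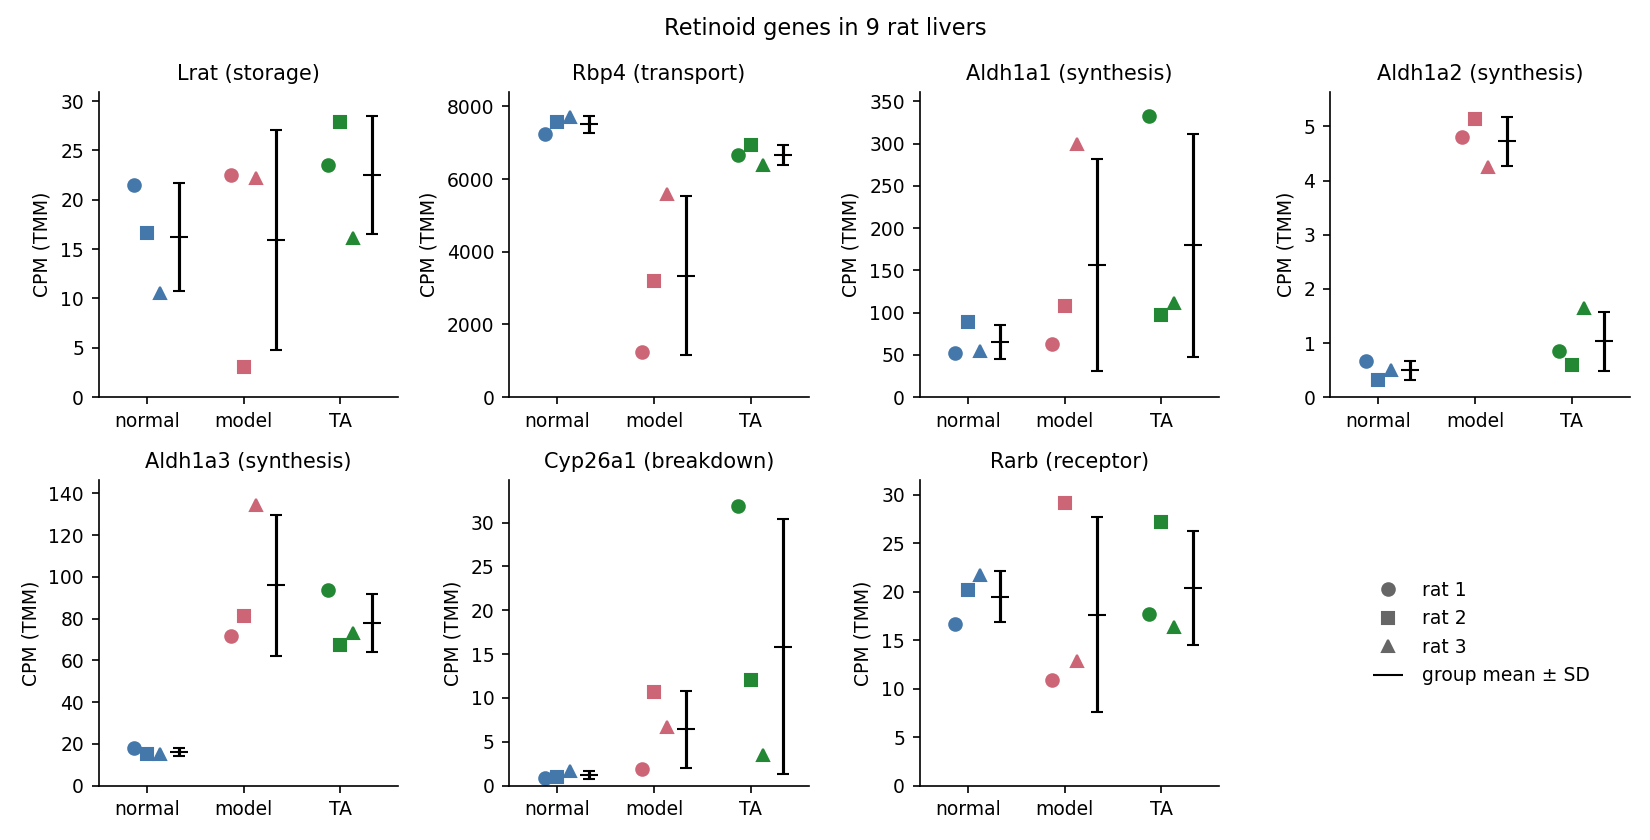
CPM (TMM scaling, linear axes from 0) of the 7 genes in each of the 9 livers, by group, with the group mean and SD (n = 3) beside the points and a marker shape per rat number. The Aldh1a2 points of the model group (4.24 to 5.13 CPM) lie apart from both other groups, and the Aldh1a3 points of the model and TA groups (67.2 to 134.5 CPM) all lie above the normal ones (15.1 to 18.1 CPM).

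Genes were tested with edgeR's quasi-likelihood test across all genes that passed its filter on low counts, with Benjamini-Hochberg adjustment, and another rule took the study's thresholds, which ask for p below 0.05 before adjustment and for a log2 fold change beyond 1 in size. In Model VS Normal, 2 of the 7 genes passed the adjusted test, both higher, where 7.87% of the 12730 tested genes passed in either direction and 6.86% were higher. By the study's thresholds 3 of the 7 were called higher (16.6% of tested genes were called higher), and 4 of the 7 had groups that did not overlap (38.2% of tested genes). Overlap was judged in CPM after TMM scaling, here and in the other comparisons. In the deposited FPKM the Rbp4 values overlapped in TA VS Model and TA VS Normal. In TA VS Model, none of the 7 passed the edgeR test at an adjusted p, nor did any of the 12781 genes tested (0.0%; 1999 had an unadjusted p under 0.05, and DESeq2 called 526 and limma voom 169). Aldh1a2 was 1 of 7 called lower by the study's thresholds (10.2% of tested genes were called lower), and 2 of the 7 did not overlap (23.1%). In TA VS Normal, 6 of the 7 passed the filter. Of these, 1 passed the adjusted test (0.263% of 12179 tested genes, or 1.67% with the rat number as a replicate block), 3 were called higher by the study's thresholds (4.24% of tested genes were), and 4 did not overlap (14.9%). The comparisons share libraries, so their values are given side by side and are not independent.

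**Figure D2:**
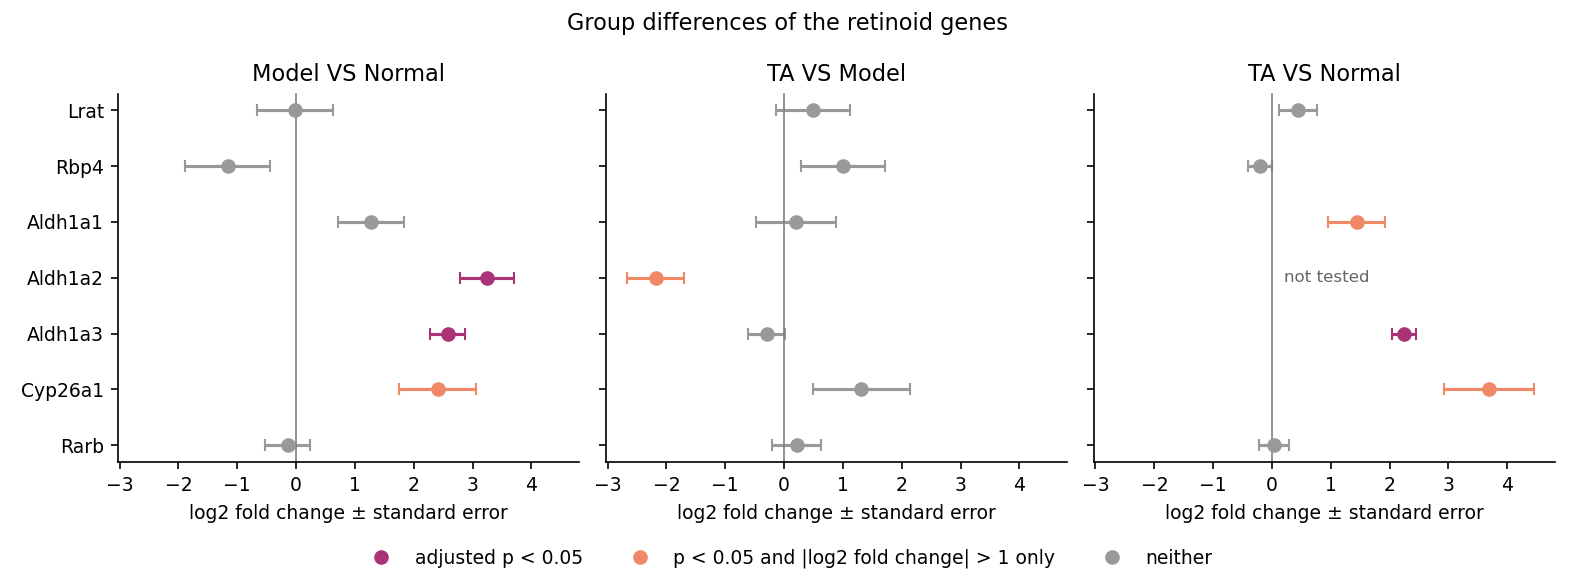
Log2 fold change with its standard error (bars) from edgeR for the 7 genes in the 3 comparisons, coloured by the rule each gene met. Aldh1a2 and Aldh1a3 lie right of 0 in Model VS Normal at 3.25 and 2.57, Aldh1a2 lies left of 0 in TA VS Model at -2.18, and Aldh1a2 was not tested in TA VS Normal because of its low counts.

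Lrat, lecithin retinol acyltransferase, was the member for storage in stellate cells. Its level was 21.5, 16.6 and 10.6 CPM in normal rats (259, 258 and 126 reads), 22.5, 3.09 and 22.2 CPM in model rats (501, 47 and 314 reads), and 23.5, 27.9 and 16.1 CPM in TA rats (330, 330 and 216 reads). Model rat 2 held the lowest value of all 9 livers, the other model rats were just above the highest normal rat, and all groups overlapped. Log2 fold changes were -0.02 (SE 0.64, adjusted p = 0.986) for Model VS Normal, 0.50 (SE 0.63, adjusted p = 0.705) for TA VS Model and 0.44 (SE 0.32, adjusted p = 0.792) for TA VS Normal. With limma voom and quality weights the Model VS Normal value was -1.79 (adjusted p = 0.0444), so that this call depends on the tool. Without model rat 2 the Model VS Normal value in edgeR was 0.46 and the TA VS Model value 0.01.

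Lrat was then set against 10 other genes of the stellate lineage, which are Des, Pdgfrb, Reln, Lhx2, Hand2, Colec11, Ecm1, Hgf, Vipr1 and Rgs5. Log2 CPM of Lrat minus the mean of these genes was 0.64, 0.60 and 0.24 in normal rats, 0.21, -1.83 and 0.65 in model rats, and 0.49, 0.93 and 0.55 in TA rats. The groups overlapped in each comparison, and the mean differences were -0.82 in Model VS Normal (exact permutation p = 0.5), 0.98 in TA VS Model (exact permutation p = 0.3) and 0.16 in TA VS Normal (exact permutation p = 0.6), where 3 rats against 3 cannot give a two-sided p under 0.1. The reference genes did not move as one. In Model VS Normal, Des, the intermediate filament of stellate cells, rose by a log2 fold change of 3.59 (adjusted p = 0.0462), Pdgfrb, the receptor for platelet-derived growth factor, rose by 2.71 (adjusted p = 0.0266), and Ecm1, a secreted matrix protein, fell by 1.91 (adjusted p = 0.0337). Des and Pdgfrb had the largest rises of the 10 genes in that comparison, where 6 of the 10 lay above 0. Against these 2 alone, the Lrat difference was -3.12 for Model VS Normal and -0.88 for TA VS Normal. The latter was of opposite sign to the value with all 10 genes, so the value depends on the reference genes chosen.

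**Figure D3:**
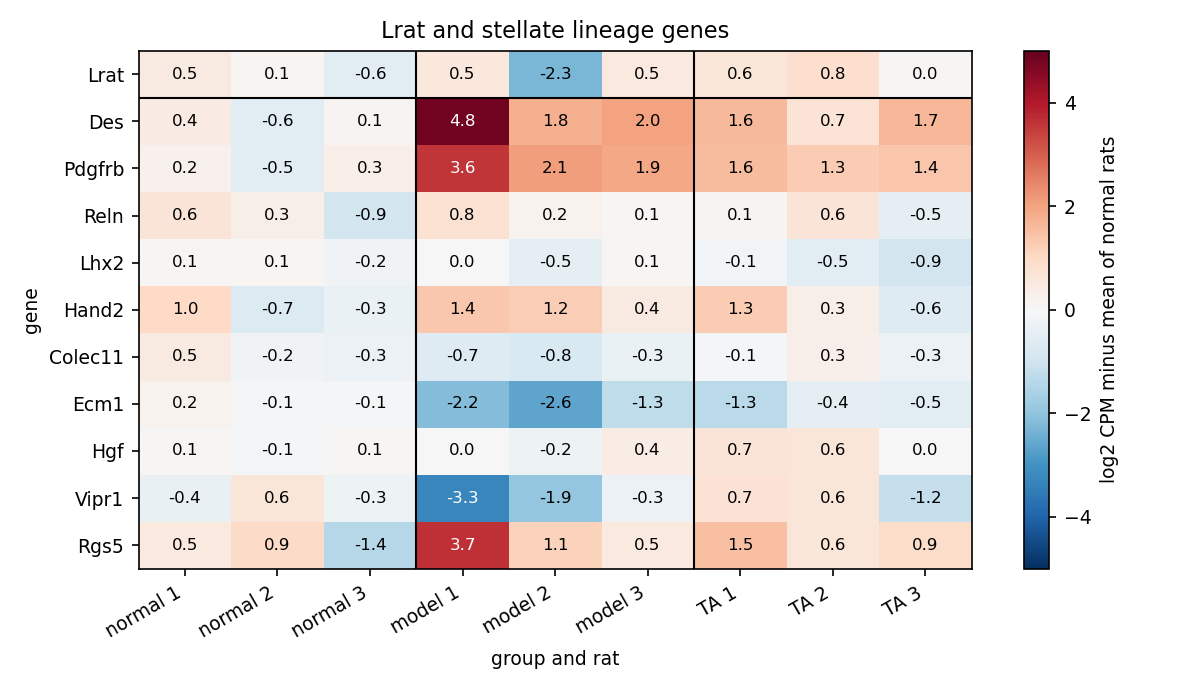
Heat map of log2 CPM minus the mean of the normal rats (colour scale and printed numbers) for Lrat and the 10 stellate lineage genes, a column per liver. Des and Pdgfrb are above the normal mean in all 6 livers of CCl4 rats, while Lrat is farthest below it in model rat 2.

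Rbp4, the plasma carrier of retinol, was the most abundant member. It stood at 7248, 7572 and 7708 CPM in normal rats, 1232, 3196 and 5601 CPM in model rats, and 6667, 6951 and 6397 CPM in TA rats. In CPM every model rat was below every normal and every TA rat. The TA rats were below the normal ones by a smaller margin, so no 2 groups overlapped in CPM. The model rats differed among themselves 4.5-fold, and no comparison passed the test, with log2 fold changes of -1.16 (SE 0.72, adjusted p = 0.315) in Model VS Normal, 1.00 (SE 0.72, adjusted p = 0.496) in TA VS Model and -0.20 (SE 0.21, adjusted p = 0.882) in TA VS Normal. Without model rat 1 the first and second of these were -0.79 and 0.61, and without model rat 3 -1.78 and 1.61. The separation of TA rats depends on the scaling. In the deposited FPKM, TA rats (6229 to 7044) overlapped both model (2213 to 6262) and normal rats (6505 to 6910), while model rats stayed below normal ones. With library totals alone the TA VS Normal log2 fold change was -0.01. Of the 10 hepatocyte genes none was called in any comparison by edgeR, at an adjusted p or by the study's thresholds, and their median log2 fold changes were -0.84, 0.91 and -0.08 for Model VS Normal, TA VS Model and TA VS Normal. Log2 CPM of Rbp4 minus the mean of the 10 hepatocyte genes was 1.21 ± 0.0733 in normal, 1.01 ± 0.475 in model and 1.15 ± 0.223 in TA livers (mean ± SD, n = 3), and the groups overlapped on this scale. This scale, and the other marker scales below, were chosen after seeing the data. The share of all genes whose groups do not overlap was not taken on any marker scale. Ttr, transthyretin, which binds Rbp4 in plasma, had 12000 to 16000 CPM in normal, 1263 to 6279 CPM in model and 6580 to 9034 CPM in TA livers, and its log2 fold changes were -1.76 (adjusted p = 0.196), 0.94 (adjusted p = 0.540) and -0.85 (adjusted p = 0.247) in the same order.

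Aldh1a1, a retinaldehyde dehydrogenase, had 52.3, 88.5 and 54.4 CPM in normal rats, 62.6, 108 and 299 CPM in model rats, and 332, 96.9 and 111 CPM in TA rats. A single rat in each CCl4 group, model rat 3 and TA rat 1, was far above its group, and model rat 1 lay within the normal range. The log2 fold change was 1.27 (SE 0.56, adjusted p = 0.179) for Model VS Normal and 0.21 (SE 0.68, adjusted p = 0.898) for TA VS Model. Without model rat 3 these were 0.37 and 1.09, and without TA rat 1 the TA VS Model value was -0.58. For TA VS Normal it was 1.44 (SE 0.48, unadjusted p = 0.0167, adjusted p = 0.350), which met the study's thresholds, and it was 0.64 without TA rat 1. Aldh1a7, a close paralog whose reads could be divided with those of Aldh1a1 in counting, had 0.415, 24.0 and 17.96 CPM in normal, 9.56, 45.9 and 27.0 CPM in model and 40.3, 39.1 and 33.7 CPM in TA rats, and none of its comparisons passed the test.

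Aldh1a2, the retinaldehyde dehydrogenase known from embryonic mesoderm and from mesothelium, was the least abundant member. It was counted with 8, 5 and 6 reads in normal rats, 107, 78 and 60 in model rats and 12, 7 and 22 in TA rats, or 0.664, 0.322 and 0.504 CPM, 4.80, 5.13 and 4.24 CPM, and 0.854, 0.592 and 1.64 CPM. The model rats lay close together and above all others, and the TA and normal rats overlapped. Aldh1a2 rose in Model VS Normal by a log2 fold change of 3.25 (SE 0.46, adjusted p = 0.0120). The adjusted p was 0.0539, 0.0855 and 0.0876 without normal rat 1, 2 or 3, with 3.50, 2.98 and 3.24 as the log2 fold change, and the call held without each model rat. The TA VS Model value was -2.18 (SE 0.48, unadjusted p = 0.00196, adjusted p = 0.230), so the study's thresholds were met and the adjusted threshold was not, while DESeq2 gave an adjusted p of 0.00307 and limma voom with quality weights 0.0459. The filter left it out of TA VS Normal, where mean log2 CPM differed by 0.81 (exact permutation p = 0.2).

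Values of mesothelial and myofibroblast genes are given beside Aldh1a2. Among the 7 mesothelial genes, Upk1b, Lrrn4 and Krt14 were at 0 in all 3 normal livers, and Msln, mesothelin, and Wt1, a transcription factor of mesothelium, rose in Model VS Normal by 5.08 and 3.93 on the log2 scale (adjusted p = 0.0119 and 0.0201), while Gpm6a was at 0.90 (adjusted p = 0.602). Of the 8 myofibroblast genes 6 rose in that comparison, and Lox was at -0.01. In TA VS Model none of 4 tested mesothelial and none of 8 myofibroblast genes passed the adjusted test in edgeR, and 2 and 8 were called lower by the study's thresholds. Log2 CPM of Aldh1a2 minus the mean of the 3 mesothelial genes with enough counts was -0.77 ± 1.43 in normal, -1.25 ± 0.208 in model and -2.01 ± 0.724 in TA livers (mean ± SD, n = 3). On the scale of 8 myofibroblast genes it was -3.38 ± 0.491, -3.91 ± 1.83 and -3.54 ± 0.682. On both scales the model mean was below the normal mean and the groups overlapped, but each order of means rested on a single liver. On the mesothelial scale normal rat 3, where Gpm6a had 0 reads, was at 0.874. The other normal rats were at -1.44 and -1.75, and the model rats at -1.47 to -1.06. On the myofibroblast scale model rat 1 was at -6.02, the other model rats at -3.03 and -2.69, and the normal rats at -3.91 to -2.94. On the scale of the 10 stellate lineage genes it was -4.17 ± 0.387, -1.60 ± 0.440 and -3.69 ± 0.914. Model livers were above normal and TA livers in every rat, as they already were in CPM. The part of these cells in the result was not tested.

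Aldh1a3, the other retinaldehyde dehydrogenase of the family, had 18.1, 15.1 and 15.2 CPM in normal rats (218, 235 and 181 reads), 71.9, 81.3 and 134.5 CPM in model rats (1602, 1235 and 1902 reads), and 93.5, 67.2 and 73.2 CPM in TA rats (1313, 794 and 981 reads). All 6 livers of CCl4 rats were above all normal livers, and the model and TA rats overlapped. Aldh1a3 rose by a log2 fold change of 2.57 (SE 0.31, adjusted p = 0.00948) for Model VS Normal, and for TA VS Normal by 2.24 (SE 0.21, adjusted p = 0.00906). Its TA VS Model value was -0.30 (SE 0.32, adjusted p = 0.652). The Model VS Normal adjusted p was 0.0517, 0.0855 and 0.0876 without normal rat 1, 2 or 3, at log2 fold changes of 2.65, 2.51 and 2.50. The TA VS Normal adjusted p was 0.0611, 0.0883 and 0.0534 without normal rat 1, normal rat 2 or TA rat 1, at 2.33, 2.20 and 2.09.

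Bile duct and myofibroblast genes also rose in Model VS Normal: 7 of 7 tested cholangiocyte genes and 6 of 8 myofibroblast genes passed the adjusted test. Log2 CPM of Aldh1a3 minus the mean of the 7 cholangiocyte genes was 3.16 ± 0.271 in normal, 2.25 ± 0.984 in model and 4.23 ± 0.141 in TA livers (mean ± SD, n = 3), so the model mean was below the normal mean on this scale and every TA liver was above every other. Against the 8 myofibroblast genes the values were 1.33 ± 0.266, 0.338 ± 2.26 and 2.61 ± 0.233, with the TA livers again above all others. Here model rat 1 was at -2.15 and the other model rats at 0.916 and 2.25, so the low model mean rested on model rat 1. Against the 10 stellate lineage genes the values were 0.540 ± 0.195, 2.65 ± 0.699 and 2.46 ± 0.266. Both CCl4 groups were above normal in every rat, as they already were in CPM. The part of bile duct cells or myofibroblasts in the level of Aldh1a3 was not tested.

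Levels of the 3 Aldh1a genes were compared per length in the deposited FPKM. Their sum was 24.8, 38.4 and 24.0 FPKM in normal rats, 87.5, 87.1 and 186.5 FPKM in model rats and 177.6, 57.5 and 66.5 FPKM in TA rats. Both CCl4 groups lay above the normal group in every rat (exact permutation p = 0.1 in each case, the smallest possible), and they overlapped each other. The FPKM are not TMM scaled, and scaling factors were 0.816 to 0.859 in normal rats against 1.70 in model rat 1. In CPM the Aldh1a1 value of model rat 1 lay within the normal range. By CPM 38.2% and 14.9% of tested genes had no overlap in Model VS Normal and TA VS Normal, and this share was not taken for FPKM. Aldh1a1 made up most of the sum in every liver, from 54.9% in model rat 1 to 89.7% in normal rat 2. The Aldh1a3 share was 14.5% ± 4.17 in normal, 31.8% ± 9.31 in model and 25.4% ± 8.63 in TA livers (SD, n = 3), with no overlap between model and normal (exact permutation p = 0.1). Aldh1a2 reached at most 4.11% of the sum, in model rat 1. Aldh8a1, a synthesis gene of the wider list named here after its values were seen, is not in this sum. It had 169.2 to 179.6 FPKM in normal, 53.05 to 155.4 FPKM in model and 144.5 to 193.0 FPKM in TA livers. Its log2 fold change was -1.17 (adjusted p = 0.196) in Model VS Normal with edgeR.

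**Figure D4:**
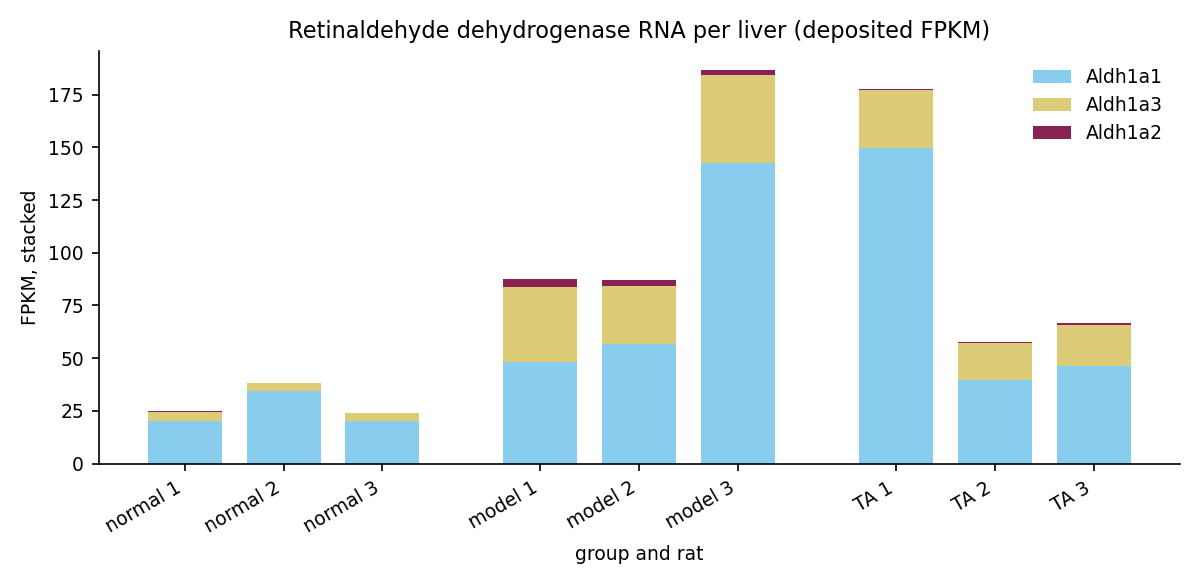
Deposited FPKM, without TMM scaling, of Aldh1a1, Aldh1a3 and Aldh1a2 stacked in 1 bar per liver, linear axis from 0. The bars of the normal rats end between 24.0 and 38.4 FPKM and those of the CCl4 rats between 57.5 and 186.5 FPKM, with model rat 3 and TA rat 1 the tallest through Aldh1a1.

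Cyp26a1, the cytochrome P450 that clears retinoic acid, had 11, 16 and 20 reads in normal rats, 43, 163 and 94 in model rats and 448, 143 and 47 in TA rats. In CPM these were 0.914, 1.03 and 1.68, then 1.93, 10.7 and 6.65, then 31.9, 12.1 and 3.51. Every CCl4 liver was above every normal liver, and the TA rats differed among themselves 9.1-fold and overlapped the model rats. The log2 fold change was 2.41 (SE 0.65, unadjusted p = 0.00618, adjusted p = 0.0608) for Model VS Normal and 3.69 (SE 0.76, unadjusted p = 0.00114, adjusted p = 0.113) in TA VS Normal, where it was 3.28 with an adjusted p of 0.0690 under the replicate block. Both met the study's thresholds and neither passed the adjusted test with edgeR, while DESeq2 gave adjusted p of 0.00488 and 1.12e-05, and limma voom with quality weights 0.00783 for Model VS Normal. Leaving out 1 rat at a time gave 1.82 (without model rat 2) to 2.83 (without model rat 1) for Model VS Normal, at adjusted p from 0.0110 (without model rat 1) to 0.197. For TA VS Normal it gave 2.66 (without TA rat 1) to 4.16 (without TA rat 3), at adjusted p from 0.0202 (without TA rat 3) to 0.356. Its TA VS Model value was 1.31 (SE 0.82, adjusted p = 0.442), and 0.29 without TA rat 1 and 1.90 without model rat 2. On the scale of the 10 hepatocyte genes Cyp26a1 stood at -11.28 ± 0.440 in normal, -8.02 ± 0.333 in model and -8.06 ± 1.36 in TA livers, again above normal in every CCl4 rat.

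Rarb, retinoic acid receptor beta, is known as a gene that retinoic acid itself induces. Its level was 16.6, 20.2 and 21.7 CPM in normal rats, 10.9, 29.2 and 12.9 CPM in model rats and 17.7, 27.2 and 16.3 CPM in TA rats. The groups overlapped in each comparison, with the highest value in model rat 2, and the log2 fold changes were -0.14 (SE 0.38, adjusted p = 0.830), 0.22 (SE 0.41, adjusted p = 0.814) and 0.04 (SE 0.25, adjusted p = 0.992) in Model VS Normal, TA VS Model and TA VS Normal. Of the 2 genes with the DR5 elements shown above, Cyp26a1 met the study's thresholds in both comparisons with normal rats and Rarb in none, and the difference between them was not tested. Among all tested genes 8 had a DR5 element in their window, Cyp26a1 and Rarb included. By the study's thresholds 1 of the 8, which is Cyp26a1 itself, was called higher and 1 lower in Model VS Normal. This is a share of 25.0% beside 22.1% of all tested genes, and not a comparison separate from Cyp26a1.

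By deposited FPKM in normal livers the order of the 7 genes was Rbp4 (6699 ± 203), Aldh1a1 (24.9 ± 8.31), Rarb (5.29 ± 0.653), Aldh1a3 (4.01 ± 0.452), Lrat (2.60 ± 0.912), Cyp26a1 (0.561 ± 0.177) and Aldh1a2 (0.184 ± 0.0631; SD, n = 3). No neighbours in that order overlapped, with Rarb and Aldh1a3 the closest. In model livers Aldh1a3 stood behind Rbp4 and Aldh1a1 at 35.2 ± 7.07 FPKM, and Rarb (7.07 ± 3.40), Cyp26a1 (4.20 ± 2.55), Lrat (4.12 ± 3.29) and Aldh1a2 (2.73 ± 0.815) overlapped with their neighbours. In TA livers Cyp26a1 stood next after Aldh1a3 at 8.49 ± 8.21 FPKM and overlapped with Rarb (6.14 ± 1.57), and Aldh1a2 was again last at 0.426 ± 0.220 FPKM. Rbp4 was among the most abundant transcripts throughout, at rank 17, 18 and 16 of 16730 genes in normal, model and TA livers.

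The wider set of retinoid genes was a list of 75, of which 67 were in the tables. In Model VS Normal 58 passed the filter. In the adjusted test 3 of the 58 rose and none fell, beside 7.87% of all tested genes that passed. These were Aldh1a2, Aldh1a3 and Lpl, lipoprotein lipase, which can also cleave retinyl ester, at a log2 fold change of 4.40 (SE 0.48, adjusted p = 0.00871). DESeq2 called 12 of 66 genes of the list at an adjusted p and limma voom 25 of 58. In each comparison these tools also called more of all genes than edgeR, with the counts given in the last section. By the study's thresholds 8 were higher and 8 lower, which is 16 of 58, beside 22.1% of all tested genes, and the median log2 fold change was -0.33 beside 0.02 over all tested genes. The median was 0.23 with library totals alone, under which the median of all genes moved to 0.65. In TA VS Model, 0 of 61 passed the edgeR adjusted test (6 had an unadjusted p under 0.05, and DESeq2 called 2 and limma voom 2 at an adjusted p), 2 were higher and 3 lower by the study's thresholds (2.11% and 10.2% of all tested genes, 12.3% in all), and the median was 0.45 beside 0.00. In TA VS Normal 1 of 59, Aldh1a3, passed the adjusted test, beside 0.263% of all tested genes (6 of the list did with DESeq2 and 2 with limma voom). By the study's thresholds 6 were higher and none lower (4.24% and 1.02% of all tested genes, 5.25% in all), and the median was -0.01 beside -0.01.

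Among enzymes that interconvert retinol and retinaldehyde, 16 were tested in Model VS Normal, and 1 was higher and 7 lower by the study's thresholds, beside 16.6% and 5.55% of all tested genes. The median was -0.98, and -0.48 with library totals alone. None passed the adjusted test. The lowest of the 7 were Adh7, an alcohol dehydrogenase, at -1.50 (SE 0.53, adjusted p = 0.113), Hsd17b13, a lipid droplet retinol dehydrogenase, at -1.48 (SE 0.45, adjusted p = 0.0782), and Hsd17b6 at -1.43 (SE 0.60, adjusted p = 0.164). The other 4 were Rdh10, Dhrs4, Adh1 and Adh4, named after their values were seen. Akr1b10, an aldo-keto reductase that reduces retinaldehyde, was at 2.53 (SE 0.87, adjusted p = 0.106), with 26.7 CPM in model rat 1 against 3.49 and 8.35 CPM in the other model rats. In TA VS Model 15 of 17 of these enzymes had a log2 fold change above 0, with a median of 0.75, but Adh7 was the only one to meet the study's thresholds (1.38, SE 0.59, adjusted p = 0.317). The count above 0 was 12 of 17 with library totals alone. Hepatocyte genes lay the same way, 10 of 10 below 0 for Model VS Normal and 9 of 10 above 0 for TA VS Model, with medians of -0.84 and 0.91, and their part in the result was not tested.

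In the storage group Lpl was the single gene to pass. It stood at 10.2 to 23.8 CPM in normal, 264 to 521 CPM in model and 67.2 to 168 CPM in TA livers, with no overlap between any groups. Its TA VS Normal log2 fold change was 2.70 (SE 0.41, adjusted p = 0.0511), which became 0.00129 under the replicate block, and in TA VS Model it was -1.67 (SE 0.46, adjusted p = 0.252). The other 8 tested storage genes, Lrat among them, lay between -1.52 and -0.02 in Model VS Normal and met neither threshold. That direction depends on the scaling: with library totals alone 7 of the 9 tested storage genes, Lpl included, lay above 0, with a median of 0.39.

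Of the breakdown enzymes, Cyp26c1, a second retinoic acid hydroxylase, met the study's thresholds beside Cyp26a1 for Model VS Normal (2.16, SE 0.70, adjusted p = 0.0942) and for TA VS Normal (2.51, SE 0.59, adjusted p = 0.151), at 3 to 7 reads in normal, 10 to 43 in model and 17 to 40 in TA livers. Cyp26b1, the other Cyp26 enzyme, was at -0.50 (SE 0.52, adjusted p = 0.549) and 0.33 (SE 0.59, adjusted p = 0.953). Cyp1a1, named after its values were seen, was at 2.12 (adjusted p = 0.363) in TA VS Normal with 1 to 13 reads in normal livers. Among 13 receptors and cofactors, Rarg and Ncoa3 were higher and Rxra lower by the study's thresholds in Model VS Normal (named after their values were seen), which is 3 of 13 beside 22.1% of all tested genes, and Rxra, the retinoid X receptor alpha, was higher in TA VS Model at 1.45 (SE 0.48, adjusted p = 0.264). Its CPM was 44.9, 93.3 and 35.8 in normal, 20.1, 13.9 and 37.6 in model and 77.6, 85.4 and 31.9 in TA rats, so all groups overlapped. Of 11 tested genes known to respond to retinoic acid, Cyp26a1 alone met the study's thresholds in the 2 comparisons with normal rats, beside 22.1% and 5.25% of all tested genes, and none did in TA VS Model. Rbp7, a cellular retinol binding protein, was called lower in TA VS Model beside Aldh1a2 and Lpl, at -1.74 (SE 0.72, adjusted p = 0.308), with 13.4 CPM in model rat 1 and 1.48 CPM in model rat 3.

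**Figure D5:**
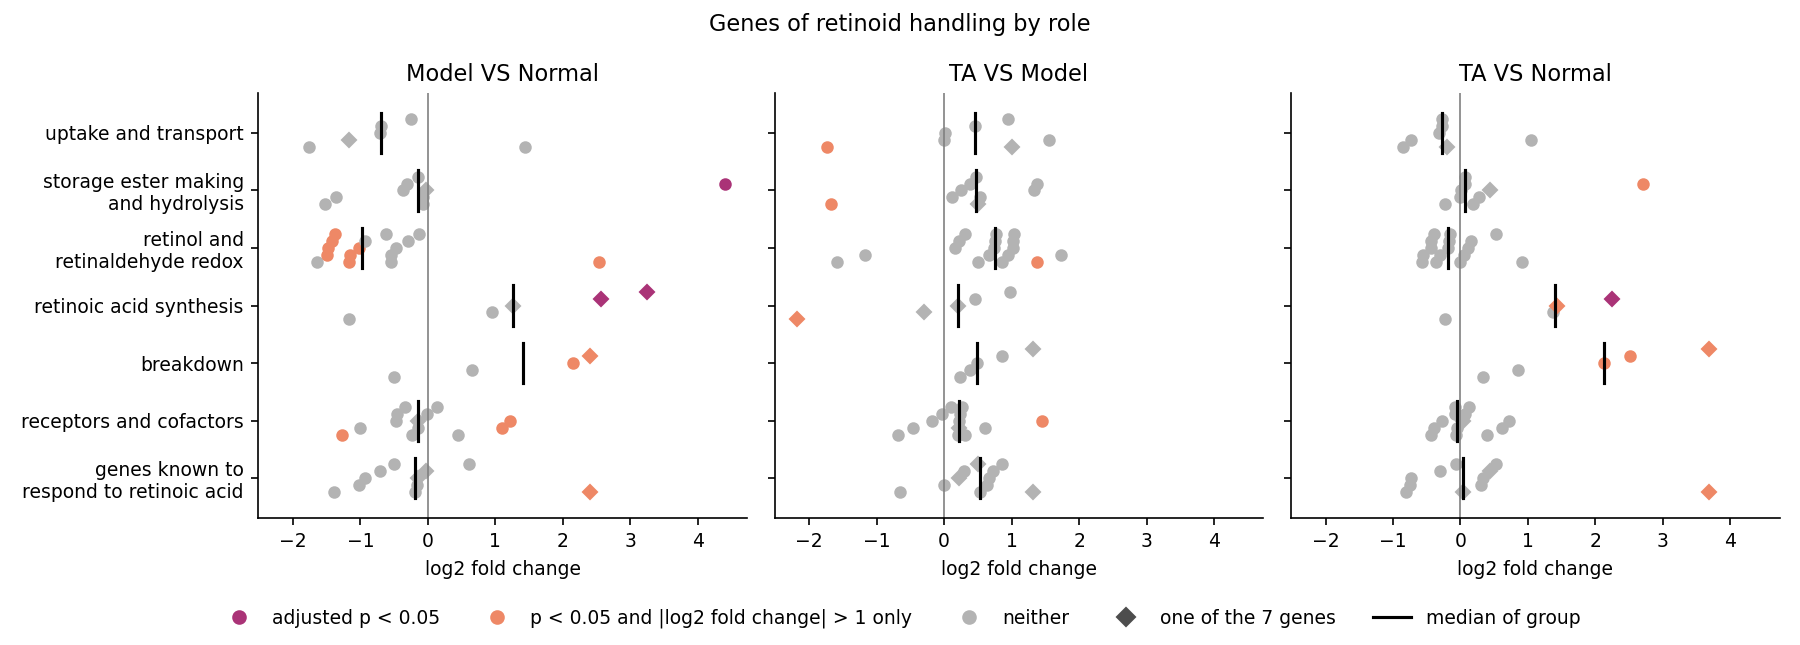
Log2 fold changes (edgeR) of the tested retinoid genes by role in the 3 comparisons, each point a gene, diamonds the 7 genes, black lines the medians of each role, coloured by the rule met. The synthesis and breakdown medians lie at 1.27 and 1.41 in Model VS Normal and the retinol and retinaldehyde redox median at -0.98. In that comparison 4 of the 5 synthesis genes lie above 0, and the other, Aldh8a1, lies at -1.17.

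The genes with the most similar pattern over the 9 libraries were found by the root mean square difference of log2 CPM deviations among 12997 genes. For Rbp4 they were Asgr2, a hepatocyte asialoglycoprotein receptor subunit (0.0740), Pemt, which makes phosphatidylcholine (0.106), and Aldh8a1 (0.111), beside a spread of 0.820 for Rbp4 itself. For Aldh1a3 they were Art4 (0.243), Ltbp1, which binds latent TGF-beta (0.280), and Fbln5, an elastic fibre protein (0.345), beside a spread of 1.16. Ltbp1 had 109 to 147 reads in normal, 1136 to 1659 in model and 622 to 969 in TA livers. For Aldh1a2 they were Adgrg1 (0.312), Misp3 (0.337) and Ddah2 (0.338), beside 1.31, and Adgrg1 had 22 to 35, 177 to 412 and 39 to 77 reads in the same order. For Cyp26a1 the closest were further off, with Onecut1, a hepatocyte and bile duct transcription factor, at 0.662, AABR07027451.1 at 0.759 and Mst1r at 0.779, beside 1.61. Lrat was closest to Pdha1l1 (0.385), Chst15 (0.404) and Rarres1 (0.448), beside 0.901, Aldh1a1 to Enc1 (0.393), RGD1560784 (0.434) and Mx1 (0.468), beside 0.917, and Rarb to Acyp2 (0.209), Prkcz (0.226) and Dmd (0.234), beside 0.435.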

How the data were processed

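Poly(A) RNA of 9 rat livers was sequenced by the authors, who trimmed the reads, mapped them with STAR, counted them per gene with HTSeq-count and deposited the raw read counts, with no pooling of replicates. The authors also deposited FPKM, which served here to compare levels between genes and the sum and shares of the Aldh1a genes between groups. Groups were taken from the labels. The mapping reference is uncertain: the study's methods name a human genome and the submitters' processing notes name a mouse build, while the symbols are those of the rat. Of 17156 gene names, 15601 (90.9%) had a match in the rat RefSeq gene table (assembly GRCr8), taken for names and printed sequences alone. A further 12 columns of per-library values and the authors' own fold changes and p-values were not used.

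Counts were tested with edgeR 4.0.16 (quasi-likelihood, TMM, its filter on low counts, R 4.3.3), with limma 3.58.1 and DESeq2 1.42.0 as alternatives. Only the libraries of the 2 groups compared entered each fit, without a block. TA VS Normal used the 16730 genes in both tables, and the same model libraries serve both tables. The standard error was taken as the ratio of log2 fold change to the root of F. CPM used TMM factors over the 9 libraries, and log2 CPM a prior count of 2. Single values were compared by two-sided exact permutation tests. The test was checked on simulated data. The labels number the rats 1 to 3 in each group. They do not state a pairing across groups, and the main fits use none. In TA VS Normal the correlations of same-numbered deviations from the group means were 0.233, 0.37 and 0.452. In the other comparisons they were not above 0.1 in every pair. These correlations are not independent of each other. For TA VS Normal the block is given for Cyp26a1 and where it changes an adjusted call of a retinoid gene. Marker genes such as Des (adjusted p = 0.0460, 0.253 without the block) and Pdgfrb (0.0166, 0.0949 without it) also passed there with the block.

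Members, lists and tests were chosen with earlier results of these data known. Named genes are the 7 members, the listed retinoid genes called at an adjusted p, the 3 with the largest log2 fold change in each direction among those called by the study's thresholds, and the 3 closest in pattern to each member (mean count of at least 10). Listed genes outside the tables are not analysed here. Depth was 13156735 to 18090405 reads per liver. Where the samples of a group are not separate animals, p-values measure only the spread between these samples, which may be technical.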

Additional observations from a re-analysis of the deposited data

How the results depend on the processing

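No group compared held more than 3 rats, and with 3 against 3 an exact test cannot give a p under 0.1. The log2 fold changes of Aldh1a2, Aldh1a3, Cyp26a1 and Rbp4 kept their sign in every planned fit in which they were tested, except Aldh1a3 in TA VS Model, which was 0.040 without model rat 3. Aldh1a1 passed in Model VS Normal with library totals alone (1.73, adjusted p = 0.0447). Low counts limit Aldh1a2 in normal and TA livers.

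With library totals alone, Lrat was 0.66 (Model VS Normal) and -0.042 (TA VS Model), Rarb 0.42 and -0.20, and Aldh1a1 -0.073 (TA VS Model). With limma voom and quality weights Rarb was 0.35 and -0.17, and Lrat passed in Model VS Normal (-1.79, adjusted p = 0.0444). Over leave-one-out fits, the log2 fold change spanned -0.39 to 0.46 for Lrat and -0.71 to 0.094 for Rarb in Model VS Normal (0.21 without normal rat 1 for Lrat; 0.094 and 0.018 without model rat 1 or 3 for Rarb). In TA VS Model it spanned -0.58 to 1.09 for Aldh1a1, -0.46 to 0.040 for Aldh1a3 and -0.032 to 0.78 for Rarb, and in TA VS Normal -0.23 to 0.18 for Rarb.

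Of all genes, 1002 passed the adjusted test in Model VS Normal, and 1980 did with library totals, 2735 with DESeq2, 3433 with limma voom and 1757 with all 9 libraries in 1 fit, and 0 to 2537 in leave-one-out fits (0 without normal rat 2 or 3, 51 without normal rat 1, 589 and 2537 without model rat 2 or 3). In TA VS Model 0 passed, with 526 by DESeq2, 169 by limma voom and 0 to 1 in leave-one-out fits, and the 1571 called by the study's thresholds became 2447 with library totals and 792 to 2792 in leave-one-out fits. In TA VS Normal 32 passed, with 56 by library totals, 76 without the filter, 341 by DESeq2, 126 by limma voom, 14 with all 9 libraries, 203 with the replicate block and 1 to 61 in leave-one-out fits. Of the retinoid list, the 16 genes called by the study's thresholds in Model VS Normal became 8 to 29 in leave-one-out fits, and the 5 of TA VS Model became 11 with DESeq2, 13 with limma voom, 8 with all 9 libraries, 9 with the replicate block and 3 to 17 in leave-one-out fits. Same-number correlations were 0.21, -0.05 and -0.05 (Model VS Normal) and 0.21, -0.04 and 0.00 (TA VS Model), and the block gave 1216 and 0 genes at an adjusted p in these comparisons. The block changed no adjusted-p call of the 7 members in any comparison. Lrat relative to Des and Pdgfrb alone, which rose most of the 10 genes in Model VS Normal, was -3.12 (Model VS Normal) and -0.88 (TA VS Normal). Relative to all 10 genes it spanned -1.30 to -0.06, 0.22 to 1.46 and 0.02 to 0.24 in leave-one-out.

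On the marker scales chosen after seeing the data, the differences with the opposite sign were, relative to hepatocyte genes in TA VS Model, Aldh1a1 at -0.84 and Cyp26a1 at -0.037; relative to mesothelial genes, Aldh1a2 at -0.48 (Model VS Normal) and -1.24 (TA VS Normal); relative to myofibroblast genes, Aldh1a2 at -0.54, 0.37 and -0.17 (Model VS Normal, TA VS Model, TA VS Normal) and Aldh1a3 at -0.997 and 2.27 (Model VS Normal, TA VS Model); and relative to cholangiocyte genes, Aldh1a3 at -0.91 and 1.98 in those. The Model VS Normal signs relative to myofibroblast genes rested on model rat 1, at -6.02 for Aldh1a2 and -2.15 for Aldh1a3. The other model rats were at -3.03 and -2.69 for Aldh1a2 (normal -3.91 to -2.94). For Aldh1a3 they were at 0.916 and 2.25 (normal 1.15 to 1.64). Of these myofibroblast genes, Postn and Thy1 had 0 to 4 reads in normal livers. The Aldh1a2 sign against mesothelial genes in Model VS Normal rested on normal rat 3. The cause was not tested.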
